A study of Mus musculus with 6 samples.

Results

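The 10 transcription regulators of heart muscle growth and maturation described here in fetal mouse hearts are Foxp1, Prox1, Meis1, Tead1, Yap1, Mef2a, Srf, Myocd, Esrrg and Zfpm2. They were chosen by name for their known roles, with earlier results of these data known, and they are 10 of the 35458 genes with a measured transcript. The exposed fetuses came from FVB/NJ dams, an inbred mouse strain, that breathed air carrying nano-sized titanium dioxide (nano-TiO2), and the sham fetuses from FVB/NJ dams kept in filtered room air. All animals were wildtype. The dams were 10 weeks old, and 14 of them entered the study. The target concentration was 12 mg/m3 for 360 minutes a day on 6 days within 8, starting on gestational day 5, and hearts of both groups were taken on gestational day 15. Each library was made from pooled hearts of male and female fetuses, with 3 libraries per group. The labels do not say which litters a pool holds. The p-values set the difference between the groups against the spread among the pools of a group. That spread may be technical and may not cover differences among litters. All 6 libraries are the inputs of an RNA methylation (m6A) immunoprecipitation, made from fragmented RNA without the antibody, and they measure RNA abundance.

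Heart muscle cells of the fetus divide, and around birth they leave the cell cycle, enlarge and switch to adult contractile proteins and oxidative metabolism. Several gene regulatory systems meet in that change. The Hippo kinases hold the coactivator Yap1 out of the nucleus; when released, Yap1 binds the DNA-binding protein Tead1 and drives growth genes. Srf binds DNA sequences called CArG boxes, and Myocd, found in heart and smooth muscle, is its coactivator on contractile genes. Mef2a binds AT-rich sites in muscle genes. Meis1 is a homeobox factor that promotes cell cycle exit of mouse heart muscle cells after birth. Prox1 is a homeobox factor needed for ordered sarcomeres in the fetal mouse heart and for lymphatic endothelium. Foxp1 is a forkhead repressor that acts on growth of the mouse myocardium, Esrrg is a nuclear receptor that turns on oxidative metabolism, and Zfpm2 (FOG2) is a cofactor of GATA4.

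The libraries held 12881945 to 22720009 estimated reads. Haemoglobin transcripts took 5.68% to 10.2% of the reads in nano-TiO2 libraries and 10.6% to 23.4% in sham libraries. Markers of heart muscle cells were abundant in all 6 libraries (8 genes, summed 15710 to 22014 CPM, read counts scaled to a common library size, in nano-TiO2 and 22107 to 26934 CPM in sham), as the label of the tissue implies. Of those 8 genes, 5 were called lower in nano-TiO2 and 0 higher (edgeR's test, described below; 12.8% of all genes were called lower and 15.5% higher); Tnnt2 (log2 fold change -0.12), Myl7 (0.0030) and Nppa (0.30) were not called. With the trend over transcript length and GC content removed, as described below, 0 of the 8 were called lower and 2 higher, Myl7 (0.88, edgeR adjusted p = 0.037) and Nppa (1.01, 0.038), and 1 was lower at an unadjusted p under 0.05. Endothelial markers summed to 459 to 481 CPM in nano-TiO2 and 463 to 491 CPM in sham, and fibroblast and valve markers to 2907 to 3104 CPM and 2805 to 3369 CPM in the same order, with overlapping ranges. Smooth muscle markers (Myh11, Des, Cspg4, Rgs5, Pdgfrb and Kcnj8) summed to 966 to 1135 CPM in nano-TiO2 against 1439 to 1717 CPM in sham, without overlap. Their median log2 fold change was -0.29. The list includes Des, the desmin gene, and the sum is not split by gene here, so it is not a measure of smooth muscle cells alone. Liver transcripts stood out in sham library 2 (922 CPM summed over 7 markers; 3.10 to 69.1 CPM in the other 5 libraries), and lung epithelium transcripts in nano-TiO2 library 3 (1510 CPM over 5 markers; 0.668 to 294 CPM elsewhere). The part of these differences in the results below was not tested. In pooled tissue, fewer cells of a type and less RNA per cell cannot be told apart.

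In nano-TiO2 hearts 6 of the 10 regulators were higher than in sham hearts: Foxp1, Prox1, Mef2a, Myocd, Esrrg and Zfpm2. Their increases ranged from 1.59-fold (Myocd) to 2.61-fold (Esrrg). None of the 10 was lower (edgeR's quasi-likelihood test on reads summed per gene, adjusted p under 0.05 over all genes tested; at an unadjusted p under 0.05, Srf was lower too, and DESeq2 called it lower). All 10 had enough reads to be tested. Among all 13930 genes tested, 15.5% were called higher and 12.8% lower, so that 6 of 10 called higher is to be read against 15.5%. The median log2 fold change was 0.90 over the 10 regulators and -0.01 over all genes tested. Without nano-TiO2 library 1 only 3 calls were left (Foxp1, Prox1 and Myocd), and without both nano-TiO2 library 3 and sham library 2, which carry the lung and liver transcripts, 0 were (edgeR; 0 of 14021 genes then passed, while 9 of the 10 regulators had an unadjusted p under 0.05). The values of the groups did not overlap for 9 of the 10, Yap1 being the exception, against 45.7% of all genes. A count made separately by the authors, reads in steps of 25 bases along each gene, gave 7 of 10 called higher, with Tead1 added, and 0 lower, where 15.4% of 18817 genes were called higher and 11.2% lower.

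**Figure D1:**
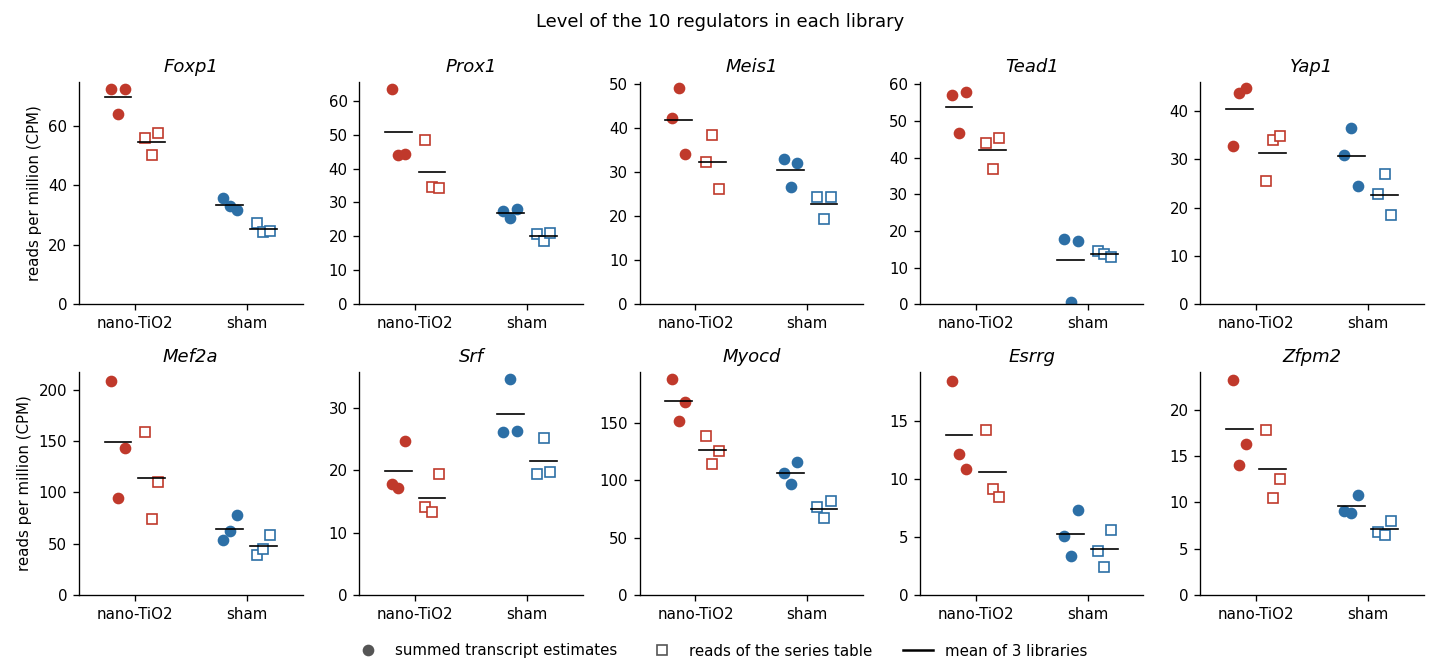
Level of each regulator in the 3 nano-TiO2 libraries (red, left) and the 3 sham libraries (blue, right), in CPM on an axis that starts at 0. Filled circles are transcript estimates summed per gene, open squares are reads of the series table and bars are means of 3 libraries; Tead1 in sham library 2 is near 0 by the estimates but not by the table, and Srf is the only gene whose means are lower in nano-TiO2.

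Foxp1 had the smallest standard error of the 10. It had 72.2, 64.1 and 72.5 CPM in nano-TiO2 libraries 1, 2 and 3, against 35.9, 32.9 and 31.8 CPM in sham libraries 1, 2 and 3. Every nano-TiO2 library lay well above every sham library. The log2 fold change was 1.05 ± 0.13 (SE; edgeR adjusted p = 0.0063).

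Prox1 had 63.4, 44.1 and 44.4 CPM in nano-TiO2 libraries and 27.4, 25.4 and 28.0 CPM in sham libraries. The sham libraries were close together, and nano-TiO2 library 1 was the highest. The log2 fold change was 0.91 ± 0.18 (SE; edgeR adjusted p = 0.011). Prox1 also marks lymphatic endothelium; the 5 other lymphatic endothelial markers summed to 88.2 to 115 CPM in nano-TiO2 and 106 to 114 CPM in sham, and 0 of the 5 were called (edgeR; at an unadjusted p under 0.05, Lyve1 was higher and Ccl21a lower). Within that sum the markers moved in both directions. Lyve1 averaged 11.8 ± 5.73 CPM in nano-TiO2 and 5.35 ± 0.92 CPM in sham (log2 fold change 1.15, edgeR adjusted p = 0.055), and was called higher in the reads of the series table described below (1.25, adjusted p = 0.034). Ccl21a averaged 33.1 ± 10.8 CPM in nano-TiO2 and 49.2 ± 4.59 CPM in sham (-0.57, adjusted p = 0.11). The part of these cells in the Prox1 difference was not tested.

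Meis1 had 42.3, 49.2 and 34.2 CPM in nano-TiO2 libraries, against 33.1, 26.8 and 32.1 CPM in sham libraries. The groups did not overlap, but the lowest nano-TiO2 and the highest sham library were nearly level. The difference did not pass the test (log2 fold change 0.45 ± 0.17 SE, edgeR adjusted p = 0.087).

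Tead1 and Yap1 work as a pair, Tead1 bringing the complex to DNA. Tead1 had 57.2, 46.7 and 57.9 CPM in nano-TiO2 libraries and 17.9, 0.673 and 17.3 CPM in sham libraries. With sham library 2 near 0, the spread within sham was large and the difference did not pass the test (log2 fold change 2.15 ± 0.88 SE, edgeR adjusted p = 0.12). The authors' separate count did not show that low library: 44.0, 36.9 and 45.3 CPM in nano-TiO2 against 14.6, 13.7 and 12.9 CPM in sham. By that count Tead1 was higher in nano-TiO2 hearts, with a log2 fold change of 1.61 ± 0.15 (SE; edgeR adjusted p = 0.0039), the largest among the 10 regulators in that count. The summed estimates without sham library 2 gave 1.63 (edgeR adjusted p = 0.032).

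The estimates assigned only 9 reads to Tead1 in sham library 2, where the table has 249. Of 8517 genes with at least 100 table reads in every library, Tead1 was 1 of 2 whose estimate in sham library 2 fell under 10% of its usual share of the table reads. Transcripts whose ID is not in the annotation used here were then searched. The search asked for about the missing number of reads in sham library 2 and few in every other library. It found 1 transcript, of 9899 bases. That transcript held 248 estimated reads in sham library 2, 36.2 in sham library 1 and 0 in the other 4 libraries. These values are what the search selected for. The transcript was given no gene name and was not added to Tead1.

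Yap1 had 32.7, 43.7 and 44.7 CPM in nano-TiO2 libraries and 30.9, 36.4 and 24.5 CPM in sham libraries. Sham library 2 lay above nano-TiO2 library 1, so the groups overlapped. The difference did not pass the test in either count (summed estimates, log2 fold change 0.40 ± 0.20 SE, edgeR adjusted p = 0.15; table reads, 0.47, adjusted p = 0.094).

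Mef2a was the regulator with the widest spread among nano-TiO2 hearts. It had 209, 94.5 and 143 CPM in nano-TiO2 libraries and 53.2, 62.5 and 78.0 CPM in sham libraries. Nano-TiO2 library 2 was only slightly above the highest sham library. The log2 fold change was 1.20 ± 0.28 (SE; edgeR adjusted p = 0.017), and the call was lost by a narrow margin without nano-TiO2 library 1 (adjusted p = 0.051), nano-TiO2 library 3 (0.052) or sham library 2 (0.051).

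Myocd had the highest level per transcript length of the 10 in both groups, by a margin that rests largely on short transcripts described below. It had 188, 152 and 169 CPM in nano-TiO2 libraries and 107, 97.0 and 116 CPM in sham libraries. The groups were well apart, and the rise was the smallest of the 6 that passed the test (log2 fold change 0.67 ± 0.13 SE, edgeR adjusted p = 0.011).

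Srf is the DNA-binding partner of Myocd, and it was the only regulator with a lower mean in nano-TiO2 hearts. It had 17.8, 17.2 and 24.6 CPM in nano-TiO2 libraries and 26.2, 34.6 and 26.3 CPM in sham libraries. All sham libraries were above all nano-TiO2 libraries. The difference did not pass the test (log2 fold change -0.54 ± 0.20 SE, edgeR adjusted p = 0.074), although DESeq2 called it lower (-0.55, adjusted p = 0.044; DESeq2 called 16.5% of all genes lower). On the log2(TPM + 1) scale, which corrects for neither haemoglobin content nor other composition, the sign turned (0.07).

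The Srf gene itself carries CArG boxes, the sites that Srf binds, and its promoter is shown because it is the only one with such boxes among the promoters available for the regulators. The stretch below is the 150 bases before the transcription start (RefSeq, GRCm38.p6, chr17:46556163-46556312, minus strand), 5′ to 3′, with the boxes in capitals.
Srf promoter: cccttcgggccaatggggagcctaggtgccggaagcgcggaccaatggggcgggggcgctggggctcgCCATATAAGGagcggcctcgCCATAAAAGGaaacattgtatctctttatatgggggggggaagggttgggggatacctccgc
The boxes begin 82 and 62 bases before the start. On either strand of the 250 bases before the start, a CArG box was found in 1.47% of 32851 RefSeq promoters, and 2 or more in 0.0183%. Of the 7 regulators with a promoter entry, Srf was the only one with a box. The letters GGAATG, the core that TEAD proteins bind, were found on either strand in the promoters of Foxp1, Yap1 and Esrrg and in 12.6% of all promoters. A match is a description of the letters in these windows only.

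Esrrg, the nuclear receptor, and Zfpm2, the GATA4 cofactor, were among the regulators with the lowest levels per transcript length. Esrrg had 18.5, 12.2 and 10.9 CPM in nano-TiO2 libraries and 5.10, 3.37 and 7.33 CPM in sham libraries, all nano-TiO2 libraries being higher. Its log2 fold change was the largest of the 6 that passed the test (1.38 ± 0.32 SE, edgeR adjusted p = 0.017), and it did not pass without nano-TiO2 library 1 (adjusted p = 0.062). Zfpm2 had 23.3, 14.1 and 16.4 CPM in nano-TiO2 libraries and 9.07, 8.83 and 10.8 CPM in sham libraries. The groups did not overlap (log2 fold change 0.90 ± 0.22 SE, edgeR adjusted p = 0.022). The call on Zfpm2 was lost in 4 of the 6 fits that left out a library: nano-TiO2 library 1 (adjusted p = 0.075), nano-TiO2 library 3 (0.056), sham library 1 (0.054) or sham library 2 (0.067).

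Fold changes in these libraries followed transcript length and base composition, and most of the regulators are long. Their median transcript length was 3729 bases, against 2381 bases over all genes tested, and 8 of the 10 were longer than that median; 7 of the 10 had a lower GC content than the median of 50.9%. When the trend of each library over length and GC was removed, 2 of the 10 regulators were called higher and 0 lower, where 1.73% of all genes were called higher and 0.739% lower. Foxp1 kept its log2 fold change (1.03, edgeR adjusted p = 0.014), and that of Myocd was larger (0.95, adjusted p = 0.031). The length of a gene in this fit was a mean over its transcripts, weighted by level per transcript length. Myocd was thus entered at 1952 bases, although Myocd-203 (5114 bases) held most of its reads. Foxp1 was entered at 3083 bases, while its forms Foxp1-206 and Foxp1-204 have 7029 and 7177 bases. The effect of this choice on the 2 calls was not tested.

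The other regulators did not pass the test with the trend removed. Prox1 gave a log2 fold change of 0.04 (adjusted p = 0.90), Zfpm2 0.25 (0.50), Meis1 0.05 (0.90), Yap1 0.07 (0.87) and Srf -0.11 (0.75). Mef2a gave 0.57 (adjusted p = 0.15), Esrrg 0.85 (0.088) and Tead1 1.34 (0.46). With the same correction on the table reads, Tead1 was still called higher (0.74, edgeR adjusted p = 0.020), besides Foxp1 (1.05, 0.0087) and Myocd (0.99, 0.016), where 3.31% of all genes were called higher and 1.57% lower. Whether the trend is a property of the RNA in the hearts or of library preparation cannot be told apart here.

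**Figure D2:**
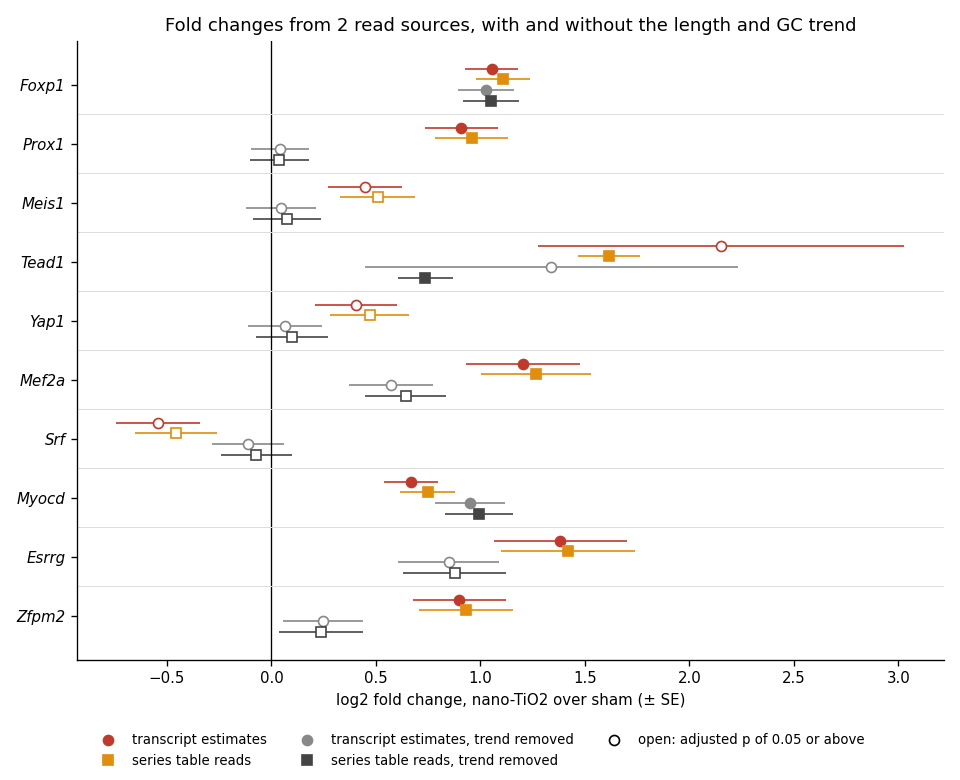
Log2 fold change of each regulator (nano-TiO2 over sham, ± SE), from the transcript estimates and from the series table, before and after removal of the length and GC trend. Filled symbols have an adjusted p under 0.05; Foxp1 and Myocd stay filled in all 4 estimates, and Prox1, at 0.91 as measured, lies at 0.04 with the trend removed.

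Levels per transcript length were compared on the TPM scale (a level corrected for transcript length, set to the same total in each library). On this scale the median of all genes was shifted toward nano-TiO2, as given in the last section. The values therefore rank the regulators within a group and are not a comparison between the groups. Counted over all its transcripts, Myocd had the highest level in both groups, above the range of every other regulator. It had 116 ± 11.6 TPM in nano-TiO2 and 45.3 ± 7.96 TPM in sham (SD, n = 3 each). Myocd-205 (377 bases, noncoding) and Myocd-204 (621 bases) made up 33.3% and 27.3% of this level, averaged over the 6 libraries. They held only 4.42% and 8.02% of the Myocd reads in nano-TiO2, and 4.64% and 6.52% in sham. Whether Myocd leads without these short transcripts was not tested. In nano-TiO2 hearts, Mef2a (42.7 ± 14.1 TPM), Foxp1 (28.0 ± 4.17), Meis1 (19.6 ± 4.87), Srf (15.2 ± 2.70), Yap1 (12.9 ± 3.20), Tead1 (10.2 ± 1.94), Prox1 (8.47 ± 1.91), Esrrg (4.68 ± 2.13) and Zfpm2 (4.51 ± 1.00) followed. From Foxp1 downward each overlapped its neighbour in range.

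In sham hearts the order was Srf (14.6 ± 3.44 TPM), Mef2a (13.0 ± 3.00), Meis1 (9.48 ± 2.69), Foxp1 (9.40 ± 2.37), Yap1 (6.18 ± 1.05), Prox1 (3.35 ± 0.85), Zfpm2 (1.58 ± 0.27), Tead1 (1.57 ± 1.11) and Esrrg (1.34 ± 0.72). The place of Tead1 rests on sham library 2, where its estimate was 0.427 TPM; sham libraries 1 and 3 had 2.65 and 1.64 TPM. Srf ranked 5 in nano-TiO2 hearts and 2 in sham hearts. Only the steps below Myocd (with its short transcripts counted), between Yap1 and Prox1 and between Prox1 and Zfpm2 were free of overlap.

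The reads of the series table also show where along each gene that count placed them. Its steps matched the merged exons of the mouse annotation for all 10 regulators. In that count most reads of Tead1 and Yap1 lay at the 3′ end. Their 3′ untranslated regions (3′ UTR, the part after the stop codon) held 88.7% ± 3.27 and 86.5% ± 3.42 of their reads in nano-TiO2 libraries, and 91.7% ± 1.74 and 85.3% ± 1.76 in sham libraries (SD, n = 3 each). Per step of 25 bases, coding bases had 0.180 times the reads of the 3′ UTR for Tead1 and 0.209 times for Yap1, averaged over the 6 libraries, where the median gene had 1.06. In that count the level of Tead1 and Yap1 was thus mostly a level of 3′ UTR reads. A coding stretch of 94 bases in Tead1-202 (GRCm38 chr7:112759546-112759639) held 0 reads in every library. So did 42 coding bases in Yap1-201 and Yap1-202 (GRCm38 chr9:7973796-7973837). Whether the count leaves out reads of short exons was not tested. The positions of the reads behind the transcript estimates were not examined.

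In the same count Myocd showed the opposite layout. From its 5′ end to the end of its longest coding exon (897 bases, GRCm38 chr11:65186919-65187815, minus strand) it had 27.4, 22.2 and 24.9 scaled reads per step in nano-TiO2 libraries, against 16.1, 13.3 and 16.5 in sham libraries. Beyond that exon, over all remaining annotated exon bases, it had 3.51, 3.13 and 3.44 in nano-TiO2 libraries and 1.63, 1.84 and 2.03 in sham libraries. These bases include a noncoding stretch of 1215 bases found only in Myocd-206, which lowers the average. That stretch had 0.475, 0.480 and 0.255 in nano-TiO2 libraries and 0.247, 0.242 and 0.379 in sham libraries. The longest stretch of the 3′ UTR (1655 bases) had 6.34, 5.30 and 6.53 in nano-TiO2 libraries and 2.60, 3.31 and 3.16 in sham libraries. All 6 libraries thus showed the same step down, and both parts were higher in every nano-TiO2 library. Coding bases of Myocd had 3.62 times the reads of its 3′ UTR per step, more than 87.0% of the 10422 genes with reads in both.

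**Figure D3:**
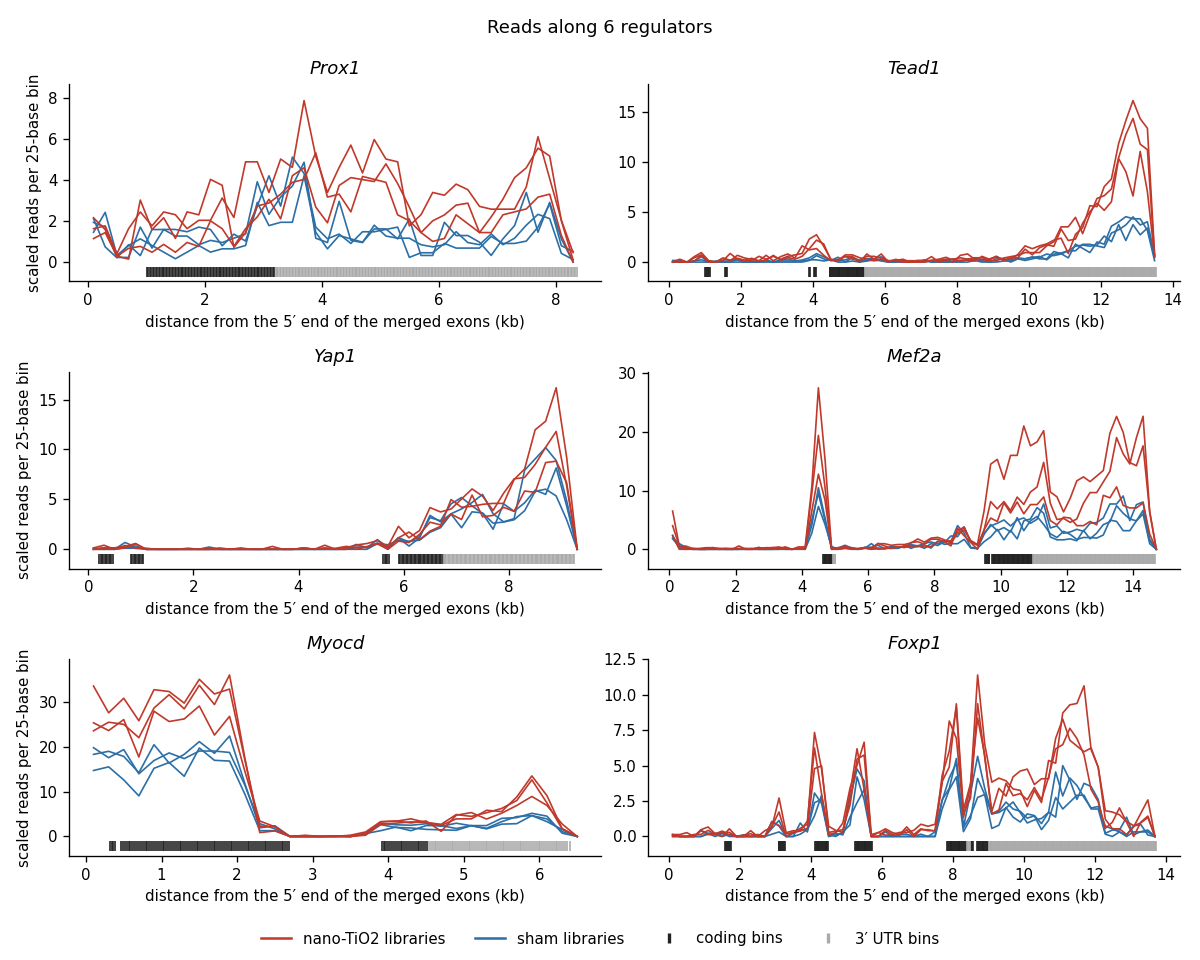
Scaled reads per 25-base step, averaged over 200 bases, along the merged exons of 6 regulators from the 5′ end (left) to the 3′ end (right), 1 line per library, with nano-TiO2 in red and sham in blue. Black ticks mark coding and grey ticks 3′ UTR steps; Tead1 and Yap1 rise toward the 3′ end, while Myocd is high over its 5′ part and low beyond it.

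Coding and 3′ UTR reads of each regulator were then tested as separate regions. For Foxp1, Tead1, Mef2a and Myocd both regions were higher in nano-TiO2 hearts, so that for these genes the rise was present in reads from 2 separate parts of the RNA. Over all genes 7.57% of 12439 coding regions were called higher and 11.4% lower, against 17.7% of 11057 3′ UTRs called higher and 5.48% lower. Of the 10 regulators, 5 were called higher in coding reads and 6 in 3′ UTR reads, and 0 were called lower in either (edgeR; at an unadjusted p under 0.05, both regions of Srf were lower). The 11 regions called higher became 6 without nano-TiO2 library 1, and 7 without nano-TiO2 library 3 or sham library 2.

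Tead1 coding reads were few, 1.49, 2.07 and 1.35 CPM in nano-TiO2 libraries against 0.447, 0.603 and 0.604 CPM in sham libraries, but no sham library reached a nano-TiO2 library (log2 fold change 1.56 ± 0.38 SE, edgeR adjusted p = 0.023). Its 3′ UTR gave 1.51 ± 0.16 (adjusted p = 0.0066). Mef2a gave 1.31 in both regions (adjusted p = 0.018 for coding and 0.015 for 3′ UTR reads). Foxp1 gave 0.85 in coding reads (adjusted p = 0.011) and 1.15 in the 3′ UTR (0.0066), and Myocd 0.65 (0.016) and 0.96 (0.0093).

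Prox1 rose in its 3′ UTR, with 53.0, 34.8 and 41.4 CPM in nano-TiO2 libraries and 21.2, 20.4 and 19.9 CPM in sham libraries (log2 fold change 1.07, edgeR adjusted p = 0.0083). Its coding reads overlapped between the groups, with 16.0, 13.0 and 7.48 CPM in nano-TiO2 libraries and 9.16, 5.34 and 9.96 CPM in sham libraries (0.56, adjusted p = 0.23). Esrrg passed the test in the 3′ UTR (1.45, adjusted p = 0.014) and not in coding reads (1.06, adjusted p = 0.18), where the groups overlapped, with 42, 30 and 19 reads in nano-TiO2 libraries and 20, 4 and 22 in sham libraries. Zfpm2 passed in coding reads (1.05, adjusted p = 0.027) and not in the 3′ UTR (0.66, adjusted p = 0.11). A direct test of coding against 3′ UTR reads within each gene called 0 of the 10 regulators, and 0% of 10443 genes (edgeR; at an unadjusted p under 0.05, 175 genes in all and 0 of the regulators), so no regulator was shown to differ between its regions.

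**Figure D4:**
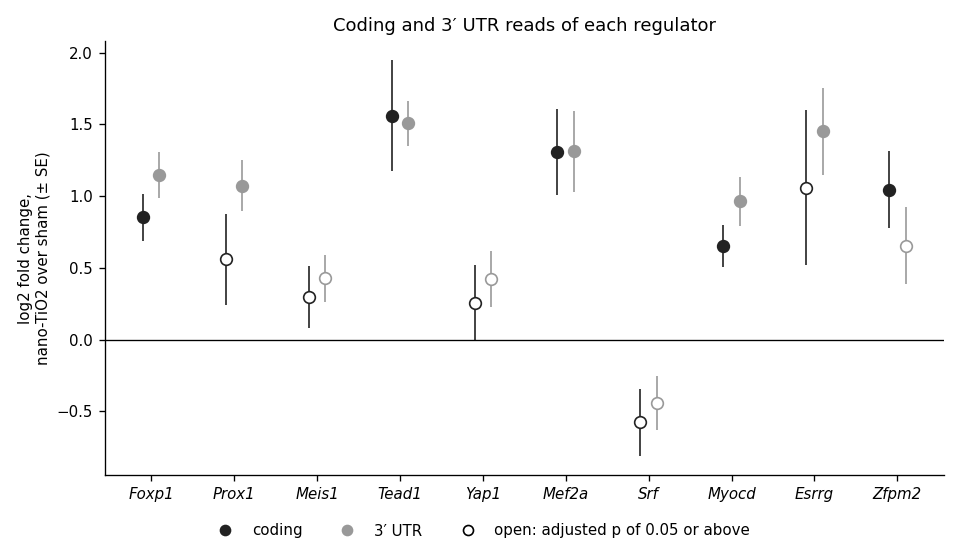
Log2 fold change (nano-TiO2 over sham, ± SE) of coding reads (black) and 3′ UTR reads (grey) of each regulator. Filled symbols have an adjusted p under 0.05: both regions of Foxp1, Tead1, Mef2a and Myocd are filled, and Prox1, Esrrg and Zfpm2 have 1 filled region each.

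Among single 25-base steps with a mean of at least 10, the table held 168 from the regulators, of which 10 were called higher and 0 lower (limma; 1.14% of 245114 steps were called higher and 4.48% lower, and the median log2 fold change of all steps was -0.25). Of the 10 called steps, 6 lay in Myocd, 2 in Mef2a and 2 in Tead1. All 82 tested steps of Myocd and all 55 of Mef2a had a positive log2 fold change, with medians of 0.67 and 1.11, and all 12 of Srf a negative one, with a median of -0.59. None of the 168 was called without nano-TiO2 library 1, nano-TiO2 library 3, sham library 1 or sham library 2; 46 to 74 of them still had an unadjusted p under 0.05. Without nano-TiO2 library 2, 21 were called.

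The annotation gives the 10 regulators 99 transcripts, of which 39 had enough reads to be tested. Transcripts vary more than genes in these libraries (biological coefficient of variation 63.2%, against 23.9% for genes), and the p-values leave out the error of assigning shared reads. Of these 39, 2 were called higher, Prox1-202 and Myocd-202, and 0 lower, where 0.921% of 30409 transcripts were called higher and 1.1% lower, 2.02% in either direction (edgeR). Both calls were lost in each fit that left out a library, as were all calls on any transcript (edgeR; 11 to 13 transcripts of the regulators still had an unadjusted p under 0.05).

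Prox1-202 (7913 bases) is the long form of Prox1, with the extended 3′ UTR. It had 953, 649 and 1051 estimated reads in nano-TiO2 libraries and 475, 311 and 434 in sham libraries, and gave a log2 fold change of 1.02 ± 0.15 (SE; edgeR adjusted p = 0.048). It held 93.7% ± 3.67 of the Prox1 reads in nano-TiO2 and 84.1% ± 6.62 in sham (SD, n = 3 each). The shorter Prox1-201 (3285 bases) had 71.1, 40.9 and 17.0 reads in nano-TiO2 libraries and 95.2, 23.7 and 106 in sham libraries. The shift in share did not pass the test of usage, which sets each transcript against the others of its gene (edgeR adjusted p = 1.00 for both).

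Myocd-202 was the only transcript of the 10 regulators whose usage differed (edgeR adjusted p = 2.06e-10; 0.335% of 24450 transcripts were called in either direction). It had 283, 379 and 333 estimated reads in nano-TiO2 libraries and was listed at 0 in all 3 sham libraries. These zeros are estimates of how shared reads divide among overlapping transcripts, so no fold is given. It made up 11.0% ± 4.07 of the Myocd reads in nano-TiO2 hearts (SD, n = 3). The main form, Myocd-203, had 1935, 1336 and 2520 reads in nano-TiO2 libraries and 1579, 904 and 1694 in sham libraries, 59.7% ± 4.05 and 71.2% ± 2.49 of the gene.

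Myocd-202 skips a coding exon of 144 bases that Myocd-203 contains (GENCODE M21, GRCm38 chr11:65184488-65184631, minus strand), a multiple of 3, so that the reading frame goes on. The sequences are shown because this exon is the coding sequence that only 1 of the 2 transcripts has; the exon is in capitals and 15 bases on either side in lower case, 5′ to 3′.
Myocd-203: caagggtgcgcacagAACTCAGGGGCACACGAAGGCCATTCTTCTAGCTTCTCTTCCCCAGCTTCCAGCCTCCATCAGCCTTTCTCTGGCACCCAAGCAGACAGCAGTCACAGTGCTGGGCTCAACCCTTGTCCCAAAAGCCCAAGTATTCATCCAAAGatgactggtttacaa
Myocd-202: caagggtgcgcacagatgactggtttacaa
This exon lies beyond the step down in Myocd reads. The table holds 13, 15 and 13 reads on it in nano-TiO2 libraries and 14, 7 and 20 in sham libraries. The groups overlapped on these 144 bases. A neighbouring coding exon of 129 bases (GRCm38 chr11:65183360-65183488), which Myocd-201, Myocd-202 and Myocd-203 all contain, held 0 reads in every library. Counts on a single short exon therefore cannot show here whether the exon was kept or skipped. Myocd-203 and Myocd-202 also differ at their ends. The first 48 bases of Myocd-203 (GRCm38 chr11:65269942-65269989, minus strand) are in no other Myocd transcript, and they held 54, 35 and 46 reads in nano-TiO2 libraries and 38, 26 and 26 in sham libraries. Per step of 25 bases this was 29.3, 20.2 and 17.6 scaled reads in nano-TiO2 and 16.1, 16.8 and 11.8 in sham, without overlap. The last 13 bases of Myocd-202, which no other Myocd transcript has, hold no step of the table. The other named Myocd transcripts, Myocd-201, Myocd-204 and Myocd-205, gave log2 fold changes of 0.56, 0.94 and 0.56 and did not pass the test (edgeR adjusted p = 0.10, 0.058 and 0.23).

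Mef2a reads were divided over 3 named coding forms. Mef2a-208 held most reads in both groups, 73.9% ± 4.83 in nano-TiO2 and 68.0% ± 3.45 in sham, and Mef2a-201 15.3% ± 3.22 and 16.5% ± 5.19 in the same order (SD, n = 3 each). Both forms had higher estimates in nano-TiO2 hearts, with log2 fold changes of 1.27 (Mef2a-208) and 1.13 (Mef2a-201), and neither passed the test (edgeR adjusted p = 0.089 and 0.14). Another form, Mef2a-205, gave 0.90 (adjusted p = 0.39). None of the 3 passed the test of usage (edgeR adjusted p = 1.00 each).

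Yap1 is made with and without a coding exon of 48 bases (GRCm38 chr9:7950492-7950539, minus strand). The exon is in capitals, with 15 bases on either side.
Yap1-201: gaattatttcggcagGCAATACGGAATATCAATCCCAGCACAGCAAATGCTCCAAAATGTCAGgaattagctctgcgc
Yap1-202: gaattatttcggcaggaattagctctgcgc
Yap1-202, without the exon, had 389, 618 and 880 estimated reads in nano-TiO2 libraries and 427, 484 and 303 in sham libraries. Yap1-201, with it, had 139, 63.4 and 186 in nano-TiO2 libraries and 215, 0 and 173 in sham libraries. Neither form separated the groups, and the 0 in sham library 2 is an estimate, since reads outside the exon fit both forms. By the authors' separate count the exon held 6, 3 and 3 reads in nano-TiO2 libraries and 2 in each sham library, sham library 2 included. These reads are few, and per step they overlapped, with 3.26, 1.73 and 1.15 scaled reads in nano-TiO2 and 0.847, 1.29 and 0.909 in sham. A coding stretch of 42 bases that both forms contain (GRCm38 chr9:7973796-7973837) held 0 reads in every library. Counts on this single short exon therefore cannot show how often it was kept.

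Esrrg, Zfpm2, Srf and Tead1 each had a leading transcript, none of which passed the test of level. Esrrg-201 held 86.9% ± 8.70 of the Esrrg reads in nano-TiO2 and 84.2% ± 8.00 in sham (log2 fold change 1.42, edgeR adjusted p = 0.076). Zfpm2-201 held 95.7% ± 3.41 and 87.9% ± 4.24 in the same order (0.97, 0.065), and Srf-201 96.3% ± 2.41 and 95.8% ± 4.95 (-0.56, 0.19). Tead1-202 was listed with 833, 517 and 1277 reads in nano-TiO2 libraries and 344, 0 and 329 in sham libraries (1.99, 0.41), and the intron-retaining Tead1-215 with 64.7, 59.8 and 70.0 against 23.8, 5.22 and 8.00 (2.40, 0.080). Tead1-209, Srf-202 and Esrrg-205 had too few reads to be tested.

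Foxp1 reads were divided over more forms. Foxp1-206 held 40.3% ± 15.4 in nano-TiO2 and 41.4% ± 16.4 in sham, and Foxp1-204, listed at 0 in sham library 2, held 30.3% ± 14.4 and 23.5% ± 21.4 in the same order. Foxp1-225 held 15.8% ± 2.60 and 20.1% ± 1.88. None of the 4 named Foxp1 transcripts passed the test of level (edgeR adjusted p of 0.14 to 0.73). Meis1-201 held 49.3% ± 5.38 in nano-TiO2 and 55.3% ± 4.35 in sham, and the noncoding Meis1-203 29.1% ± 4.85 and 28.4% ± 3.86 (adjusted p = 0.57 and 0.26 for their levels).

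Of 17 paralogs of the regulators tested, 5 were called higher and 0 lower (edgeR; 15.5% and 12.8% of all genes), and their median log2 fold change was -0.28. With unadjusted p-values under 0.05, 0 paralogs were lower in edgeR and 1 in DESeq2, which called 0 lower after adjustment. Foxp2, a forkhead relative of Foxp1, averaged 7.66 ± 2.95 CPM in nano-TiO2 and 2.95 ± 0.60 CPM in sham (log2 fold change 1.37, edgeR adjusted p = 0.021). Mef2c, which is needed for heart looping in the mouse, averaged 85.4 ± 26.5 CPM and 40.3 ± 5.99 CPM in the same order (1.08, 0.013).

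Meis2 averaged 35.9 ± 5.82 CPM in nano-TiO2 and 19.3 ± 2.73 CPM in sham (log2 fold change 0.90, edgeR adjusted p = 0.012). Wwtr1, the relative of Yap1 known as TAZ, averaged 50.4 ± 9.11 and 33.6 ± 1.53 CPM in the same order (0.59, 0.030). Mrtfb, a myocardin-related coactivator of Srf, averaged 20.8 ± 0.69 and 14.2 ± 2.41 CPM (0.55, 0.043). With the length and GC trend removed, 0 of the 17 paralogs were called (edgeR; at an unadjusted p under 0.05, 3 were higher and 1 lower), with log2 fold changes of 0.89 for Foxp2, 0.70 for Mef2c, 0.48 for Meis2, 0.04 for Mrtfb and -0.11 for Wwtr1.

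The other TEAD factors did not pass the test. Tead2 averaged 129 ± 34.5 CPM in nano-TiO2 and 179 ± 33.5 CPM in sham (log2 fold change -0.47), Tead3 12.2 ± 2.05 and 12.4 ± 3.43 CPM (-0.02), and Tead4 3.25 ± 0.24 and 3.56 ± 0.75 CPM (-0.13), with edgeR adjusted p of 0.13, 0.96 and 0.75. The signs of Tead3 and Tead4 turned when only library totals were used for scaling, and that of Tead2 on the TPM scale. Mef2d (67.5 ± 6.46 and 82.4 ± 9.81 CPM in the same order, -0.29) and Mef2b (0.547 ± 0.24 and 0.924 ± 0.37 CPM, -0.73) did not pass the test.

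Esrra averaged 29.1 ± 8.28 CPM in nano-TiO2 and 40.5 ± 7.09 CPM in sham (log2 fold change -0.48), and Esrrb 7.07 ± 2.37 and 8.78 ± 1.53 CPM (-0.32). Foxp4 (14.7 ± 5.71 and 19.0 ± 6.16 CPM in the same order, -0.36), Meis3 (13.0 ± 3.21 and 15.8 ± 2.09 CPM, -0.28), Zfpm1 (9.20 ± 0.39 and 12.8 ± 8.22 CPM, -0.46) and Prox2 (1.31 ± 0.20 and 1.11 ± 0.18 CPM, 0.24) did not pass the test either. Mrtfa was estimated at 0.894 ± 0.51 and 1.07 ± 1.43 CPM in the same order (-0.30), whereas the series table gave means of 18.1 CPM in nano-TiO2 and 23.5 CPM in sham (-0.37, adjusted p = 0.18).

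Upstream of Yap1, 9 of 19 genes of the Hippo cascade were higher in nano-TiO2 hearts, where 15.5% of all genes were called higher. These 9 genes stood against 0 called lower (edgeR and DESeq2 alike; with unadjusted p-values under 0.05, still 0), and the median log2 fold change of the list was 0.81. Lats2, a kinase that phosphorylates Yap1, averaged 31.1 ± 5.00 CPM in nano-TiO2 and 16.3 ± 0.76 CPM in sham (0.93, edgeR adjusted p = 0.0090). Amotl1, an angiomotin-like protein that binds Yap1, averaged 101 ± 11.4 and 56.5 ± 4.31 CPM in the same order (0.84, 0.0074), and the kinase Taok1 76.1 ± 21.4 and 31.0 ± 6.18 CPM (1.30, 0.0090). With the length and GC trend removed, 0 of the 19 were called and the median was 0.27 (edgeR; at an unadjusted p under 0.05, 6 were higher and 1 lower, and 1.73% of all genes were called higher).

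Of 12 genes known as targets of the YAP-TEAD complex, 3 were called higher and 0 lower (edgeR; 0 also at an unadjusted p under 0.05, and 0 by DESeq2; 15.5% of all genes were called higher and 12.8% lower), with a median log2 fold change of 0.00. Tgfb2, a growth factor, averaged 61.2 ± 3.61 CPM in nano-TiO2 and 34.9 ± 3.53 CPM in sham (0.81, edgeR adjusted p = 0.0085), and Crim1 8.22 ± 2.26 and 3.14 ± 0.43 CPM (1.40, 0.011). The other, F3, named after its values were seen, gave 1.08 (0.041). The familiar targets Ccn2 and Ccn1, named here outside the rule after their values were seen, averaged 67.6 ± 6.23 and 57.6 ± 12.6 CPM in nano-TiO2, against 59.2 ± 6.33 and 68.3 ± 6.42 CPM in sham, and did not pass the test (adjusted p = 0.32 and 0.31). Gadd45b did not pass either (15.4 ± 1.41 and 19.8 ± 1.83 CPM, -0.36, adjusted p = 0.12). All 3 calls were lost with the length and GC trend removed, Tgfb2 giving 0.35 (edgeR adjusted p = 0.17), Crim1 0.85 (0.11) and F3 0.83 (0.14); with an unadjusted p under 0.05, 4 genes of the list were then higher and 0 lower.

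Of 18 target genes of Srf and myocardin-type coactivators, 2 were called higher and 5 lower (15.5% and 12.8% of all genes), with a median log2 fold change of -0.42. Acta2, smooth muscle actin, which the fetal heart also makes, averaged 1375 ± 40.5 CPM in nano-TiO2 and 2278 ± 249 CPM in sham (-0.73, edgeR adjusted p = 0.0087). Actc1, cardiac actin, averaged 9482 ± 785 and 13687 ± 529 CPM in the same order (-0.53, 0.021), and the smoothelin gene Smtn 108 ± 12.3 and 157 ± 15.4 CPM (-0.54, 0.022). Named after their values were seen, Myl9 (-0.48) and Junb (-0.60) were the others called lower, and Vcl and Fhl1 those called higher (0.61 each). With the length and GC trend removed, Acta2 was the 1 gene of the list still called (-0.81, adjusted p = 0.029), and the median was -0.07. On the log2(TPM + 1) scale the signs of Actc1 and Smtn turned, as did those of Hdac5, Xirp1, Cpt1b, Nkx2-5, Cdkn1a, Cdk1 and Tnni1 below. Of the smooth muscle markers, 2 of 6 were called lower and 0 higher, and 0 of 6 in either direction with the trend removed (edgeR; 2 then lower at an unadjusted p under 0.05). The heart muscle markers gave 5 of 8 lower, and with the trend removed 0 lower and 2 higher, as given above. The part of either in these differences was not tested.

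Around Mef2a, 2 of 15 genes were called higher and 2 lower, near the shares of all genes (15.5% and 12.8%), with a median log2 fold change of 0.25. Camk2d, a calcium-dependent kinase that relieves MEF2 from histone deacetylases, averaged 143 ± 32.5 CPM in nano-TiO2 and 72.7 ± 12.4 CPM in sham (0.98, edgeR adjusted p = 0.011). Hdac5, a deacetylase that represses MEF2, averaged 104 ± 16.4 and 171 ± 6.03 CPM in the same order (-0.72, 0.011), and the MEF2 target Xirp1 174 ± 15.1 and 246 ± 15.4 CPM (-0.50, 0.020). The other gene called higher, named after its values were seen, was Ppargc1a (0.98, 0.047). None of these 4 calls held once the trend was removed (edgeR adjusted p = 0.087 for Camk2d, 0.21 for Hdac5, 0.095 for Xirp1 and 0.57 for Ppargc1a). At an unadjusted p under 0.05, 1 gene of the list was then higher and 4 lower, and the median was 0.09.

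Of 14 coactivators and targets of estrogen-related receptors, 1 was called higher and 1 lower (15.5% and 12.8% of all genes), with a median log2 fold change of -0.06. The corepressor Nrip1 averaged 10.1 ± 1.77 CPM in nano-TiO2 and 4.15 ± 0.29 CPM in sham (1.28, edgeR adjusted p = 0.0085). Cpt1b, which brings fatty acids into mitochondria, averaged 477 ± 25.9 and 726 ± 111 CPM in the same order (-0.61, 0.017). The coactivator Ppargc1b did not pass the test (38.9 ± 7.33 and 26.4 ± 4.62 CPM, 0.56, adjusted p = 0.061). Removal of the trend ended the calls on Nrip1 (edgeR adjusted p = 0.082) and Cpt1b (0.15). Cycs, the cytochrome c gene, named after its values were seen, was then called lower (-0.91, adjusted p = 0.049; -0.56, 0.22 before), where 0.739% of all genes were.

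Of 14 partners of MEIS, GATA and FOG proteins, 3 were called higher and 1 lower (15.5% and 12.8% of all genes), with a median log2 fold change of -0.06. Nr2f2, an atrial and venous regulator, averaged 28.5 ± 5.78 CPM in nano-TiO2 and 12.1 ± 3.19 CPM in sham (1.23, edgeR adjusted p = 0.011), while the cardiac homeobox gene Nkx2-5 averaged 334 ± 6.65 and 527 ± 33.3 CPM in the same order (-0.66, 0.0085). Hdac2, named after its values were seen, was also called higher (0.81, 0.040). After removal of the trend, 0 of the 14 were called (edgeR; at an unadjusted p under 0.05, 4 were higher and 0 lower), with Nr2f2 at 0.83 (adjusted p = 0.19), Nkx2-5 at -0.18 (0.59) and Hdac2 at 0.58 (0.17).

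Among 12 cell cycle genes tested of 13 listed, 1 was called higher and 2 lower (15.5% and 12.8% of all genes). Ccnd2, a cyclin of G1 phase, averaged 388 ± 15.4 CPM in nano-TiO2 and 247 ± 22.1 CPM in sham (log2 fold change 0.65, edgeR adjusted p = 0.0091), and was still called with the trend removed (1.03, 0.013). Cdk1, the kinase of mitosis, averaged 117 ± 4.87 and 175 ± 4.52 CPM in the same order (-0.58, 0.0096), and the inhibitor Cdkn1a 58.2 ± 9.53 and 83.2 ± 10.4 CPM (-0.51, 0.046). These 2 calls were lost with the trend removed (Cdk1 -0.46, edgeR adjusted p = 0.073; Cdkn1a -0.02, 0.95).

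Among 12 contractile and channel genes that mark fetal or adult muscle, 3 were called higher and 1 lower (15.5% and 12.8% of all genes). The calcium channels Ryr2 (122 ± 40.7 and 50.6 ± 9.24 CPM, 1.27, adjusted p = 0.012) and Cacna1c (56.6 ± 7.49 and 29.6 ± 4.03 CPM, 0.94, 0.0085) were higher in nano-TiO2, and Tnni1, the fetal troponin I, was lower (4056 ± 617 and 6457 ± 692 CPM, -0.67, 0.019). Ttn, the giant spring protein of the sarcomere, named after its values were seen, was the other called higher (0.92, 0.028). All 4 calls ended when the trend was removed, and the log2 fold changes were then 0.31 for Ryr2 (edgeR adjusted p = 0.43), 0.48 for Cacna1c (0.15), 0.08 for Ttn (0.89) and 0.02 for Tnni1 (0.97). At an unadjusted p under 0.05, 1 gene of the list was then higher and 1 lower.

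**Figure D5:**
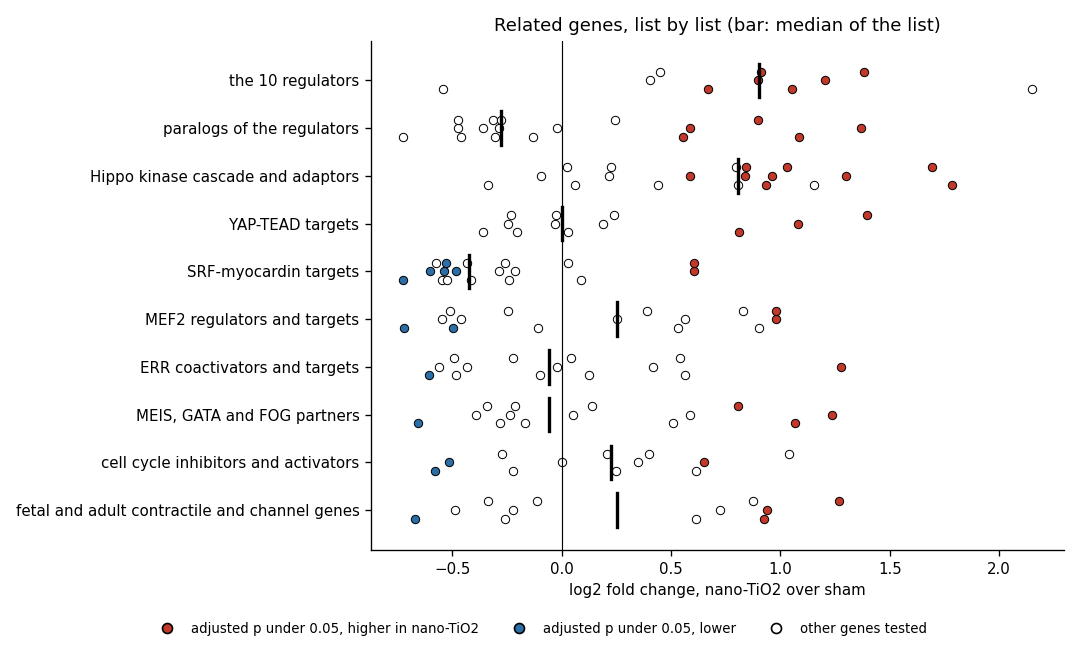
Log2 fold change (nano-TiO2 over sham) of the 10 regulators and of 9 lists of related genes; each point is a gene tested, filled red or blue where the adjusted p is under 0.05, and the bar is the median of the list. Hippo cascade genes lie mostly above 0 (median 0.81) and targets of Srf and myocardin mostly below (median -0.42); with the length and GC trend removed these medians are 0.27 and -0.07.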

How the data were processed

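RNA from 6 pools of fetal hearts was measured as sequencing inputs, 3 nano-TiO2 and 3 sham. The authors deposited Salmon files with estimated counts and TPM per transcript, and a table of normalised signal per 25-base step for the whole series. Per the submitters' processing notes, HISAT2 2.2.1, Salmon 1.5.2, DESeq2 1.34.0 and GRCm39 were used; the tool that counted the steps is not given in the sources used here. Divided by the value of 1 read, the signal gave whole reads for 100% of values within 0.001.

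Gene and transcript names came from GENCODE M21 (GRCm38), which matched 115685 of 116747 transcripts. Estimated counts were summed per gene and rounded. edgeR 4.0.16 (quasi-likelihood test, TMM scaling, Benjamini-Hochberg adjustment over all features, threshold 0.05) in R 4.3.3 was the test for genes, transcripts and regions, with its splice test for usage; limma 3.58.1 tested steps, and DESeq2 1.42.0 was an alternative. The length and GC trend was fitted per library with mgcv 1.9.3. The gene, usage and step tests were tested on simulated data. Region tests, and alternatives on the table reads other than the main test, were chosen after seeing the data.

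The members and lists were chosen with earlier results of these data known. Named genes are the 10 regulators, all paralogs tested and, from each other list, up to 3 genes with the smallest p and a mean of at least 5 CPM. Transcripts are named at 10% or more of the TPM of their gene, or when called. A gene and a sequence that these rules would include are not reported here. The replicate numbers share no source in the labels and, with correlations of -0.39, 0.02 and -0.08 between same-numbered pools, did not pair them.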

Additional observations from a re-analysis of the deposited data

How the results depend on the processing

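Of the 10 regulators, 6 were called in their levels. The count was 3 to 6 when a library was left out, 0 without sham library 2 and nano-TiO2 library 3, and 2 (summed estimates) or 3 (table reads) after removal of the length and GC trend. With the replicate number as a block it was 5, Zfpm2 being lost (adjusted p = 0.050), but transcript levels gave 0 calls under the block and in every fit that left out a library, and 1 with limma-voom. Transcript usage gave 0 when limited to transcripts with a mean of at least 5% of the TPM of their gene; Myocd-202 has 2.02%. Steps gave 26 at a mean of at least 5 and 0 to 21 when a library was left out; regions gave 6 to 11 when a library was left out and 17 with library totals. Library totals moved the median of all genes to 0.41, and log2(TPM + 1) and log2(TPM + 0.1) to 0.47 and 0.56; the cause was not tested.

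The following log2 fold changes changed sign. With library totals they were Foxp4 0.083, Meis3 0.16, Tead3 0.41, Tead4 0.30, Mef2d 0.14, Mrtfa 0.0081, Esrrb 0.11, Zfpm1 0.00039 and Gadd45b 0.062. On the log2(TPM + 1) and log2(TPM + 0.1) scales they were Srf 0.068 and 0.073, Foxp4 0.25 and 0.29, Meis3 0.37 and 0.40, Tead2 0.19 and 0.19, Tead3 0.58 and 0.68, Tead4 0.34 and 0.50, Mef2d 0.35 and 0.37, Esrra 0.15 and 0.16, Esrrb 0.20 and 0.27, Zfpm1 0.35 and 0.44, Gadd45b 0.32 and 0.34, Actc1 0.14 and 0.14, Smtn 0.18 and 0.19, Hdac5 0.0061 and 0.0059, Xirp1 0.16 and 0.17, Cpt1b 0.074 and 0.074, Nkx2-5 0.066 and 0.067, Cdkn1a 0.15 and 0.15, Cdk1 0.038 and 0.038, and Tnni1 0.0035 and 0.0035. After removal of the trend they were Meis3 0.27, Tead3 0.38, Tead4 0.33, Wwtr1 -0.11, Mrtfa 0.26, Gadd45b 0.26 and Tnni1 0.016. Tead3 also turned with upper-quartile factors (0.035), limma-voom (0.024), length-scaled TPM counts (0.0037), the block (0.0028) and table reads (0.028), and Mrtfa with limma-voom (0.86), length-scaled TPM counts (1.10) and the block (0.45). Without sham library 2 and nano-TiO2 library 3, Tead3 gave 0.12, Tead4 0.12 and Zfpm1 0.19. When a library was left out, values ranged from -0.19 to 0.14 for Tead3, -0.21 to 0.053 for Tead4, -0.72 to 0.20 for Zfpm1 and -0.85 to 1.71 for Mrtfa. Depth limits the precision of coding reads, of which a library held at most 42 for Esrrg and 28 for Tead1.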
